A study of Mus musculus with 2 samples.

Results

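The genes described here are the immunoglobulin heavy chain variable segments of the mouse, the V segments from which the antigen-binding end of every antibody heavy chain is built. They were taken as every gene whose GENCODE symbol starts with Ighv, which gave 175 genes (173 symbols, since Ighv1-13 and Ighv5-8 each name 2 identifiers) among the 43346 genes with an Ensembl identifier. They were measured by polyA RNA-seq in spleen from a single C57BL/6J mouse, a male at 10 weeks of age, for which no treatment is labelled. There are 2 libraries of this organ, labelled technical replicates 1 and 2 of biological replicate 1, so both groups share the animal, strain, sex, age and tissue. The library of technical replicate 2 dates from 2015 and is not part of a publication of 2014 that the labels mention, and for both libraries a size range is labelled as 350 to 450, without a unit.

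A functional heavy chain gene is made in each developing B cell by joining 1 of the V segments to a D and a J segment, and it is then transcribed through a leader exon, the joined variable exon and the constant exons of Ighm or another class. V segments are sorted into families by sequence, and the number after Ighv is the family. In the spleen most B cells are mature and carry a completed rearrangement, so the V segment in the mRNA records which segment the cell chose. A table of V segment counts sums this mRNA over all B and plasma cells of the organ. Each cell weighs in it by its heavy chain mRNA, so the counts are not a census of cells. Usage below means a share of these counts.

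Both libraries contained B cell RNA. All 10 B cell markers fixed for the check, Ms4a1 and Cd79a among them, were detected in each, with a summed TPM (a level per length, scaled to the same total in each library) of 4259 in replicate 1 and 1467 in replicate 2. All 7 plasma cell markers were detected in each as well, with a summed TPM of 1669 and 403. Summed over all genes the rounded counts were 27528810 in replicate 1 and 3806385 in replicate 2, or 7.23 times fewer. Each side of the comparison is 1 library, so no p-value is given, every interval covers counting error only, and a difference between them is a difference between these libraries. In bulk RNA fewer cells of a type and less RNA per cell cannot be told apart.

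Each segment is small. Of the 175 gene models, 144 have 2 exons, a leader exon and the V exon, separated by an intron of 83 bases at the median (76 to 176), and 31 have a single exon. The V exon ends at the codon of the conserved cysteine that opens the third complementarity-determining region, followed by the few germline bases that are trimmed and joined to D. The last 60 bases of the V exon are given here for the leading segments of the 8 families whose leading segments had the highest counts, because these ends are where the segments meet the junction. They were read from GENCODE M21 transcripts on GRCm38, lie on the minus strand of chromosome 12 in coding exon outside any UTR, and are written 5′ to 3′ with capitals from the cysteine codon to the annotated end of the segment.
Ighv4-1, chr12:113948282-113948341: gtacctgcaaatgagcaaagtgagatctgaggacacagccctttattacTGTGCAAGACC
Ighv1-26, chr12:114788372-114788431: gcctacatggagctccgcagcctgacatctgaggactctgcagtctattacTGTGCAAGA
Ighv3-6, chr12:114288152-114288211: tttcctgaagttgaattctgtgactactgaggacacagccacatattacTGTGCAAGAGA
Ighv6-3, chr12:114391712-114391771: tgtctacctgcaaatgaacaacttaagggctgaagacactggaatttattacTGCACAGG
Ighv10-1, chr12:114479005-114479064: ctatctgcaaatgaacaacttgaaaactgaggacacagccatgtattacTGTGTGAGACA
Ighv9-3, chr12:114140692-114140751: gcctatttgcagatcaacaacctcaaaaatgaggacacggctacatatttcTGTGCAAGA
Ighv5-17, chr12:113859149-113859208: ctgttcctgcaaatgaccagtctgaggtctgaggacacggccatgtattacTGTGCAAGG
Ighv7-1, chr12:113896408-113896467: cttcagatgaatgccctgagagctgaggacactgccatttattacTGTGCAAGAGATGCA
The segments differ upstream but several share the same end. In Ighv1-26 and Ighv9-3, of different families, the capitals read TGTGCAAGA. Among the 117 segments detected in replicate 1, 107 carried the letters TACTGT (tyrosine, then cysteine) or TTCTGT (phenylalanine, then cysteine), or either with C in place of the final T, on the transcript strand within their last 40 bases, and these held 94.8% of the Ighv counts. The same letters stood in the last 40 bases of 4.92% of all 141767 GENCODE M21 transcripts. Of the segments with this motif, 44 ended exactly in TGTGCAAGA, 42 of them in family Ighv1, and together they held 38.5% of all Ighv counts. The ends TGTGCAAGAGA (6 segments, 6.80% of counts) and TGTGCAAGACC (2 segments, both of family Ighv4, 6.40%) came next.

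In replicate 1 a broad range of V segments was expressed. Of the 175 segments, 117 had at least 1 expected count, 96 had at least 10 and 57 had at least 100. Their expected counts summed to 21841, or 793 CPM, counts per 1000000 counts on genes (95% Clopper-Pearson interval 783 to 804), and their TPM values summed to 6656. The median detected segment had 93 counts. On the scale of level per length, 105 segments reached 1 TPM and 21 reached 100 TPM.

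Which segments were silent followed the annotation of the locus. Of the 113 segments annotated as IG_V_gene (and not as pseudogenes), 105 were detected and 94 had at least 10 counts, and they held 99.7% of all Ighv counts. Of the 60 segments annotated as IG_V_pseudogene, 12 were detected, with 66 counts among them or 0.302% of the total. The highest pseudogenes were Ighv1-2, with 21 counts and 5.83 TPM, and Ighv1-38, with 11 counts and 3.60 TPM, both named after their values were seen. The pseudogene Ighv8-14, a model of 120 bases, had an effective length of 0 in replicate 1, so its 0 says nothing of its level. The remaining 2 members, annotated as IG_LV_gene, are the second identifiers of Ighv5-8 and Ighv1-13. They lie on the plus strand, opposite to the other 173, and had 0 counts. The IG_V_gene segments with 0 counts in replicate 1 were Ighv7-2, Ighv16-1, Ighv8-13, Ighv1-24, Ighv1-16, Ighv6-5, Ighv1-62-1 and Ighv5-12-4. A count of 0 allows up to 3 counts, or 0.0137% of the Ighv counts.

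The leading segment by count was Ighv4-1, the only IG_V_gene of its family, with 1389 counts and 324.61 TPM in replicate 1 and 0 counts in replicate 2. It held 6.36% of the Ighv counts of replicate 1 (6.04 to 6.69). Ighv1-26, of the largest family, followed with 1143.94 counts and the highest level per length of all members, 369.56 TPM, and had 0 counts in replicate 2. Its share was 5.24% (4.95 to 5.54), below that of Ighv4-1 by more than counting error, while the order by TPM was the reverse, since the Ighv4-1 model is 414 bases long and that of Ighv1-26 is 351.

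Next came Ighv3-6 with 894 counts (290.56 TPM) and Ighv6-3 with 883 counts (276.95 TPM), whose shares of 4.09% (3.83 to 4.36) and 4.04% (3.79 to 4.31) overlapped within counting error. Ighv10-1 had 768 counts (236.73 TPM), Ighv1-55 had 720 (167.52 TPM), Ighv9-3 had 683 (220.65 TPM) and Ighv5-17 had 671 (163.32 TPM). Neighbours among these 4 had overlapping intervals. The 8 highest segments come from 7 families of the locus.

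From there the counts declined gradually. Ighv7-1 had 630 counts, Ighv1-53 had 611.05, Ighv7-3 had 573, Ighv1-82 had 532 and Ighv1-18 had 528.06. Ighv1-82 stood at rank 5 on the TPM scale, with 258.32 TPM, because its model is short at 294 bases. The remaining 12 of the 25 highest ran from Ighv8-5 with 450.49 counts to Ighv1-80 with 298. In replicate 2, 24 of these 25 segments had 0 counts and Ighv9-3 had 2.

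**Figure D1:**
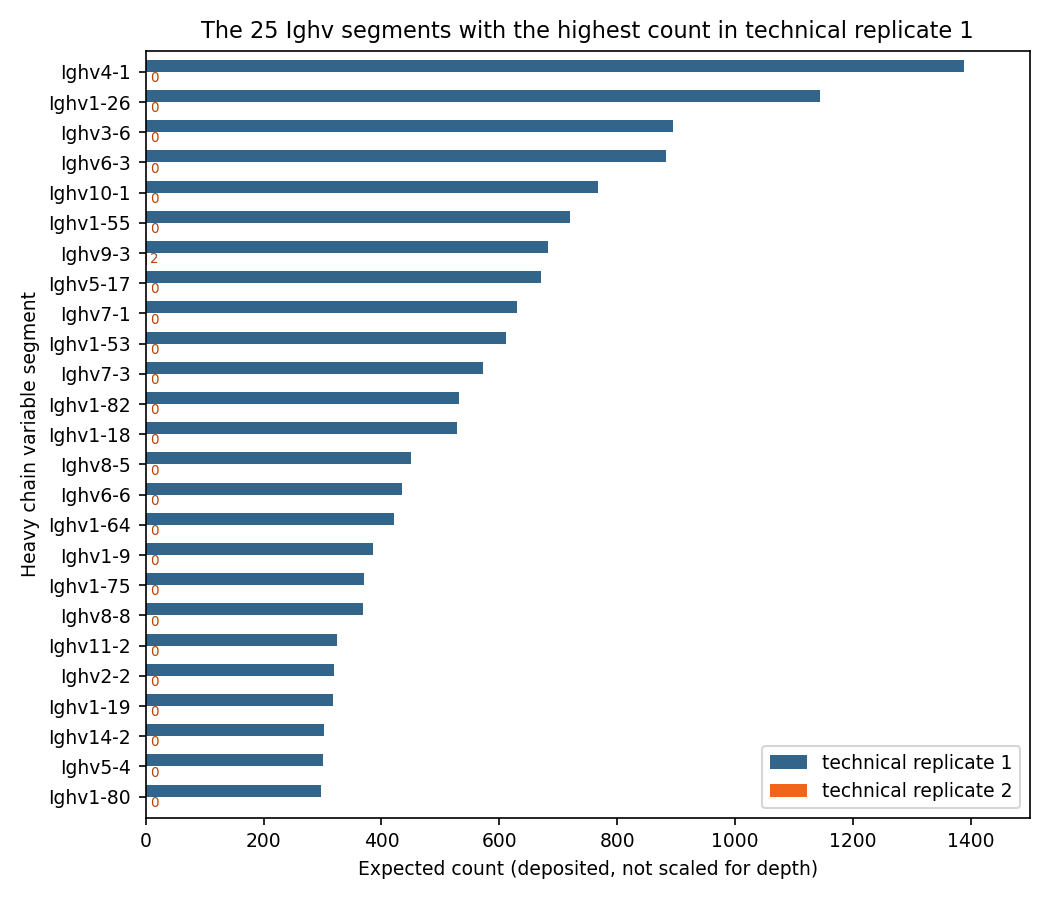
Deposited expected counts (x axis, not scaled for depth) of the 25 segments with the highest count in technical replicate 1 (y axis), with a bar for each library and the count of technical replicate 2 printed beside its bar. Counts run from 298 for Ighv1-80 to 1389 for Ighv4-1 in replicate 1, against 0 for all but Ighv9-3, with 2, in replicate 2.

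Usage in replicate 1 was spread over many segments. The exponential of the Shannon entropy of the count shares, the number of equally used segments that would be as diverse, was 58.3 (57.6 to 59.1, a 95% interval from the multinomial variance of the entropy), which is 49.9% of the 117 detected. The 10 highest segments held 38.4% of the counts and the 25 highest held 65.6%. It took 16 segments to reach 50% of the counts and 54 to reach 90%. The kappa light chain V segments (Igkv), measured the same way, gave an effective number of 47.3 from 96 detected of 103, with 12 segments for 50% and 48 for 90%.

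By family, Ighv1 was the largest component in replicate 1. Its 86 members, 53 of them IG_V_gene, held 9210 counts, or 42.2% of all Ighv counts (41.5 to 42.8), beside 46.9% of the IG_V_gene segments. No member dominated the family, as its highest, Ighv1-26, held 12.4% of its counts. Family Ighv5, 22 segments close to the D and J segments, came next with 1736 counts and 7.95% (7.59 to 8.32), led by Ighv5-17. Its 10 IG_V_gene members are 8.85% of all such segments.

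A group of small families exceeded their share of segments. Ighv4 held 6.40% of counts (6.08 to 6.73) with 0.885% of the IG_V_gene segments, and Ighv4-1 alone made 99.4% of it. Ighv10 held 4.81% (4.53 to 5.10) with 1.77% of segments, 73.1% of it from Ighv10-1. Ighv7 held 5.80% (5.49 to 6.11) with 3.54%, divided between Ighv7-1 (49.8% of the family) and Ighv7-3. Ighv6 held 6.08% (5.76 to 6.40) with 4.42%, and nearly all of its 1327 counts came from Ighv6-3 (883) and Ighv6-6 (435).

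Other families stood nearer to their share of segments, or below it. Ighv3 held 5.46% (5.16 to 5.77) beside 5.31% of segments, with 75.0% of its counts from Ighv3-6. Ighv9 held 4.18% (3.92 to 4.45) and Ighv14 held 4.03% (3.77 to 4.30), each beside 3.54% and above it by more than counting error. Ighv9-3 made 74.8% of its family, while Ighv14-2, the highest of Ighv14, made 34.3%. Ighv2 held 5.56% (5.26 to 5.87) and Ighv8 held 5.24% (4.95 to 5.55), each beside 7.96% of segments. In Ighv8 the counts lay in Ighv8-5, Ighv8-8 and, named after its value was seen, Ighv8-12 with 279 counts, and its median IG_V_gene level was 3.61 TPM.

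The rarest families each rested on 1 segment. Ighv11 had 329 counts (1.51%), of which Ighv11-2 made 98.4%. Ighv13-2 gave all 125 counts of Ighv13, Ighv12-3 gave 30 of 31 in Ighv12, and Ighv15-2 gave all 25 of Ighv15. Ighv16-1, the sole member of Ighv16, had 0 counts in both libraries.

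**Figure D2:**
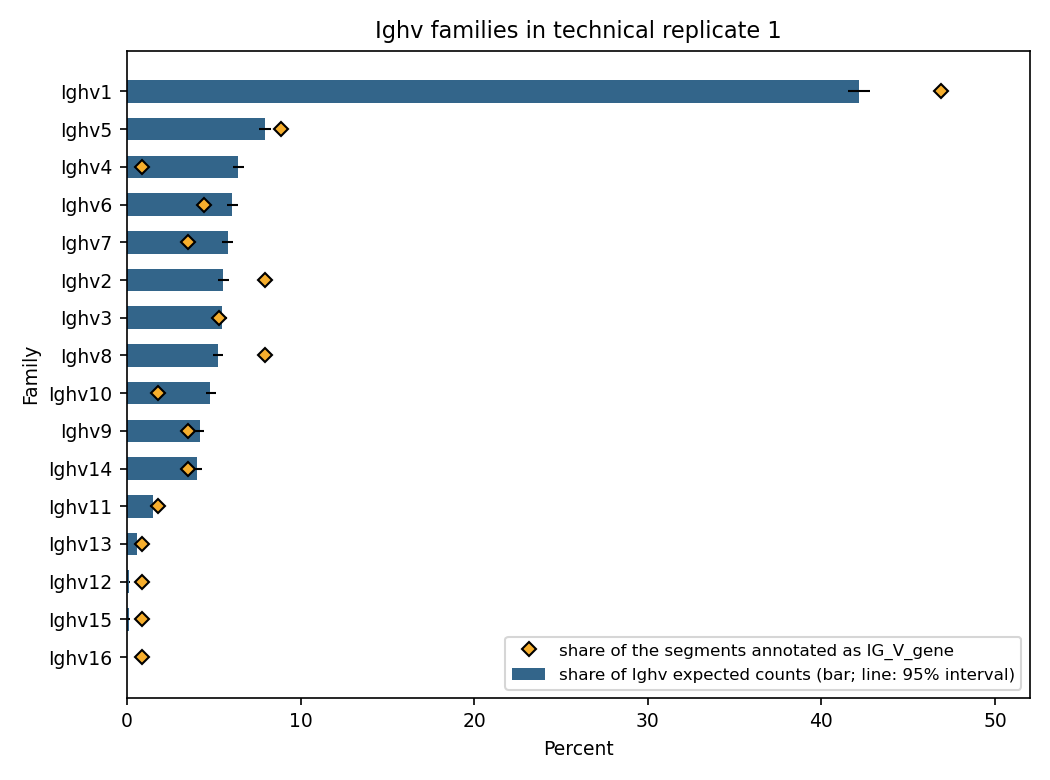
Share of the Ighv expected counts of technical replicate 1 held by each family (bars, with 95% Clopper-Pearson intervals) and share of the 113 IG_V_gene segments that belong to it (diamonds), both in percent. Ighv1 held 42.2% of the counts beside 46.9% of the segments, and Ighv4 held 6.40% beside 0.885%.

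All members lie on chromosome 12 between positions 113572927 and 116000461 of GRCm38, a stretch of 2428 kb. The D and J segments and the constant genes lie below it, and the nearest segment, Ighv5-1, starts 143 kb from the J segments. Families are not evenly mixed along it. The 87 nearest segments include 9 of Ighv1, whereas the 88 farthest include 77, interspersed with Ighv8. The nearest detected segment was Ighv5-2, 149 kb from J, with 29 counts and 9.26 TPM, and the farthest was Ighv1-85, 2570 kb from J, with 60 counts and 19.38 TPM.

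The 87 nearest segments held 12389 counts, or 56.7% (56.1 to 57.4), and the 88 farthest held 43.3%. The 2 groups are matched in annotation, with 56 and 57 IG_V_gene segments. In blocks of 25 segments outward from J, the shares were 8.73%, 19.2%, 19.9%, 14.3%, 9.40%, 14.0% and 14.5%. These blocks hold from 12 to 24 IG_V_gene segments, so the mean counts per IG_V_gene segment were set beside the shares. They were 136 in the nearest block, 246, 241 and 239 in the next ones, 170 and 204 after that, and 132 in the block farthest from J. By this mean both ends of the locus were lower than the blocks between them. The median TPM of the IG_V_gene segments did not follow that order. From the nearest block outward it was 34.4, 35.5, 26.7, 45.2, 9.8, 39.2 and 27.4. The farthest block holds 21.2% of the IG_V_gene segments and 14.5% of the counts. The second and the third block contain Ighv5-17, Ighv7-1, Ighv4-1, Ighv9-3, Ighv3-6 and Ighv6-3.

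Single segments showed little order by distance. Across the 113 IG_V_gene segments, Spearman's rho between order from J and TPM was -0.01 and Pearson's r with log2(TPM + 1) was -0.02, and within the 53 of Ighv1 they were 0.08 and 0.10. These are descriptions over segments that share 1 library. Over the 105 detected IG_V_gene segments, rho with the count was 0.33 for model length and -0.09 for order from J.

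**Figure D3:**
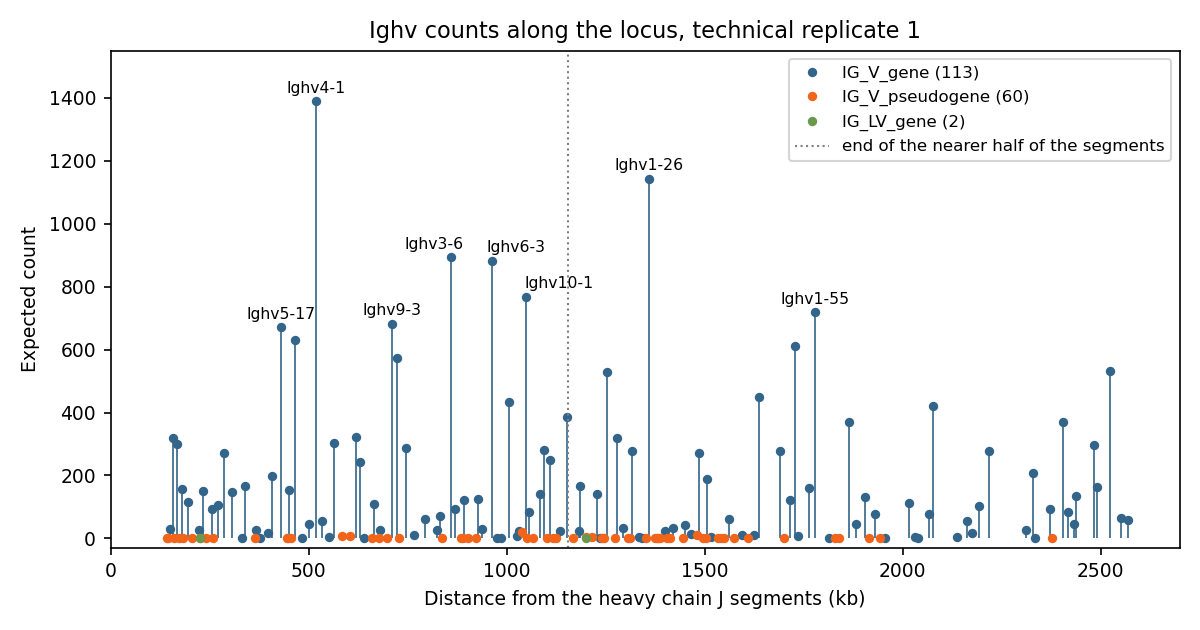
Expected count of each segment in technical replicate 1 (y axis) against its distance from the heavy chain J segments in kb (x axis), coloured by annotation, with the 8 highest named and a dotted line where the 87 nearest segments end. High segments stand on both sides of that line, and pseudogenes lie at or near 0 throughout, with a highest count of 21.

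Family members resemble each other closely, and the count of a segment depends on telling it from its relatives. Between IG_V_gene segments of the same family the median identity was 84.5% over 1540 pairs, against 60.4% over 4788 pairs of different families. Most same-family pairs, 1378, lay within Ighv1, where the median was 84.1%. Of the 117 detected segments, 91 had a count that the authors' quantification left certain (posterior standard deviation 0), and their nearest relative was 94.0% identical at the median. The other 26, 20 of them in Ighv1, had a posterior standard deviation above 0, a nearest relative 97.1% identical at the median, and 31.1% of the Ighv counts. These values belong to the authors' deposited estimate, and genes that share reads are uncertain by it.

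Ighv8-5 and Ighv8-8 show how few bases can carry the assignment. Their 358-base models differ at 14 positions (96.1% identity), and 3 of these lie in the last 60 bases, shown in capitals.
Ighv8-5, chr12:115067560-115067619: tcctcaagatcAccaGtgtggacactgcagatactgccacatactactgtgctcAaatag
Ighv8-8, chr12:115294062-115294121: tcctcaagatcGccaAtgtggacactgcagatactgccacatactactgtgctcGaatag
Their counts were 450.49 and 369.51 with a posterior standard deviation of 1.57 each, so these segments were separated well. At the other extreme stood Ighv1-62-2 and Ighv1-71, named after their values were seen. The 302-base model of Ighv1-71 is identical to a transcript of Ighv1-62-2, each of these was assigned 27.97 counts, and the posterior standard deviation of both genes was 17.35. Another transcript of Ighv1-62-2, of 378 bases, contains the whole Ighv1-71 model and was assigned 86.05 counts, which brought that gene to 114.03.

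In technical replicate 2 the V segments were all but absent. Of the 175 segments, 174 had 0 counts, and Ighv9-3 had 2 counts (1.57 TPM) against 683 (220.65 TPM) in replicate 1. The sum was 0.525 CPM (0.0636 to 1.90) against 793. At the share seen in replicate 1 a library of this depth would have held 3020 Ighv counts, with at least 10 on each of 64 segments. Usage by family, evenness and position therefore cannot be described in replicate 2, and the 2 libraries cannot be compared in them.

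Scaled by the trimmed mean of M-values (TMM), the summed Ighv level was lower in replicate 2 by a log2 ratio of -9.30 (-12.34 to -7.44), or 629-fold lower (174 to 5198). Scaled by total count, it was 1510-fold lower (418 to 12469). Among single segments, 71 had the depth to be compared (50 or more counts in the libraries together, and 1 TPM or more on average). A gene was called when its whole 95% interval lay beyond 1.5-fold. By this rule 57 of the 71 were lower, 0 were higher and 14 were neither, beside 32.6% lower and 28.0% higher of all 12467 genes compared. All 71 passed the depth filter through replicate 1 alone. With 0 counts in replicate 2 a segment cannot be called higher, and is called lower only when its count in replicate 1 is high enough. The segments called lower had at least 103.15 counts in replicate 1 and the others had at most 94. The number of calls at each setting therefore follows the counts of replicate 1 and adds no support to the summed ratio. By total count all 71 were lower, beside 58.5% lower and 14.6% higher of all genes, and with DESeq2 size factors 55 were, beside 30.5% lower and 29.5% higher. With no filter 57 segments were lower, beside 20.2% of the 20488 genes with a count, and with at least 200 counts 35 of 35 were, beside 36.1%. A 2-fold threshold left 49, beside 25.2%, and a 99% interval 46, beside 29.1%.

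Because a 0 in replicate 2 allows up to 3 counts, the fold of a segment with a 0 is a bound taken at 3 counts. Ighv4-1 was at least 26.7-fold lower, Ighv3-6 at least 17.2-fold and Ighv6-3 at least 17.0-fold (TMM). Ighv9-3, with counts in both libraries, had a log2 ratio of -4.30 with an upper limit of -2.44. With each 0 set to 3 counts, the median log2 ratio over the 71 segments was -1.93, a value set by depth. Over all genes compared the median was -0.27. The bound of each single segment lies below the fold of the sum.

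The heavy chain constant genes, which follow the V segment on the same mRNA, differed far less between the libraries in their sum. The 8 genes Ighm, Ighd, Ighg1, Ighg2b, Ighg2c, Ighg3, Ighe and Igha held 214065 counts in replicate 1 and 9566 in replicate 2, a log2 ratio of -0.37 (-0.40 to -0.34) by TMM and -1.63 by total count. Single genes of this sum went both ways. Ighm, the constant gene of IgM, had 154866 and 6014 counts, a log2 ratio of -0.57 by TMM and -1.83 by total count. Igha, that of IgA, had 2655 and 1308 counts and was higher, at 3.10 by TMM and 1.83 by total count. Ighg2b (-1.12) and Ighg2c (-2.24) were lower by TMM, as they were by total count (-2.38 and -3.51). Ighm, Ighd, Ighg1 and Ighg3 were neither by TMM, and Ighe had too few counts to be compared. The Ighv sum was lower than the heavy constant sum by a further 488-fold (135 to 4030), from an exact conditional interval on the 4 counts. In replicate 1 there were 10.2 Ighv counts for every 100 heavy constant counts, and in replicate 2 there were 0.0209. Per length, the Ighv TPM was 80.6 per 100 heavy constant TPM in replicate 1, and 0.134 in replicate 2.

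The V segments of the light chains and of the T cell receptor were also far lower in replicate 2. Igkv fell from 37467 counts to 1, Iglv (3 lambda V segments) from 4673 to 0, and the T cell receptor V segments from 2524 to 6. The Ighv and Igkv ratios could not be told apart, with a ratio of ratios of 3.43 (0.179 to 202). Against the T cell receptor V segments Ighv was lower by a further 26.0-fold (4.64 to 263). The T cell receptor constant genes held 5073 and 444 counts, a log2 ratio of 0.60 (0.46 to 0.74) by TMM and -0.66 by total count. Igkc, the kappa constant gene, had 35940 counts in replicate 1 and 166 in replicate 2 and was 12.5-fold lower (10.7 to 14.6), a ratio between those of the V segments and of the summed heavy constant genes. Its model, 323 bases, is about as short as a V segment. Iglc2, a lambda constant gene, had 10366 and 2913 counts and was higher in replicate 2, with a log2 ratio of 2.29 by TMM and 1.02 by total count.

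**Figure D4:**
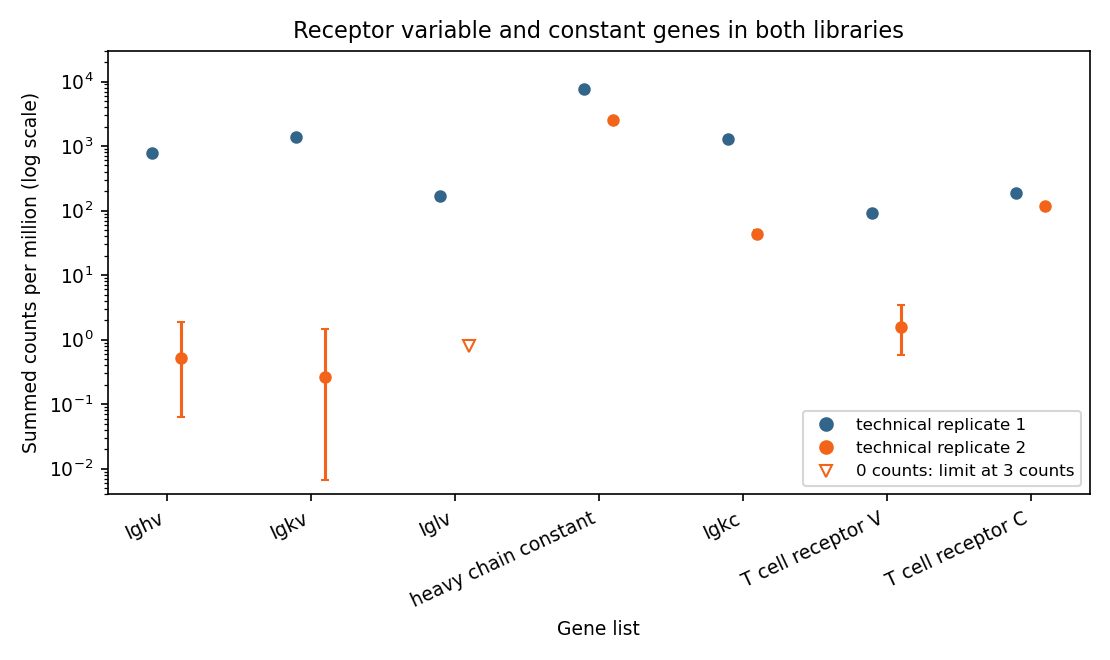
Summed CPM (y axis, log scale) of receptor variable and constant genes in each library, with 95% Clopper-Pearson intervals where they exceed the symbol, and an open triangle for 0 counts at the limit of 3 counts (0.788 CPM). All 4 variable lists lie far lower in technical replicate 2, Ighv at 793 and 0.525, while the heavy chain constant genes stand at 7776 and 2513.

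Length and base composition were set beside this difference, in a comparison chosen after the data were seen. Among genes outside the receptor loci with models of 300 to 400 bases and at least 100 counts in replicate 1, 23 of 30 were detected in replicate 2, with 13 called higher and 10 lower. Among Ighv segments of that length and count, 1 of 47 was detected. The effective length that the authors assigned to the median segment was 161.72 bases in replicate 1 and 215.44 in replicate 2. The detected segments had a GC content of 49.6% at the median (42.3 to 53.1). Of the 6995 other genes compared in that GC range, 2749 were lower and 1159 higher, with a median log2 ratio of -0.73. Beside these sets, 32.6% of all 12467 genes compared were lower and 28.0% higher, with a median of -0.27 (TMM). What part length, fragment size or base composition has in the Ighv difference was not tested.

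The genes that make and drive the V segments were measured beside them. The D and J segments of the heavy chain, 24 genes with models of 10 to 54 bases, had an effective length of 0 in both libraries, so their listed counts of 0 say nothing of their level. Of 14 recombination and diversification genes, 11 could be compared, of which 2 were higher and 3 lower by TMM, beside 28.0% and 32.6% of all genes, and 0 were higher and 8 lower by total count, beside 14.6% and 58.5%. Rag2, a subunit of the recombinase, had 0 counts in both libraries, and Rag1, the other, had 18 and 0. Lig4, the ligase of end joining, was higher (431 and 92 counts, log2 ratio 1.89) by TMM and was not called by total count (0.63). Prkdc, the DNA-dependent protein kinase, was lower (3365 and 5 counts, -5.28), as it was by total count (-6.54).

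The 11 factors known at V promoters and heavy chain enhancers were all detected in both libraries, with 4 higher, 4 lower and 3 neither by TMM, beside 28.0% higher and 32.6% lower of all genes. By total count 1 was higher and 5 were lower, beside 14.6% and 58.5%. Pax5, which fixes B cell identity, was higher (1219 and 680 counts, log2 ratio 3.27). Pou2af1, the B cell coactivator of octamer factors, was lower (11207 and 110 counts, -2.55), and Ikzf1 was lower (15970 and 171 counts, -2.43). Of the surrogate light chain genes and their relatives, expressed in developing B cells, Vpreb3 was higher (313 and 175 counts, 3.28), Vpreb1 had 6 and 9 counts, and Igll1 and Vpreb2 had 0 in both libraries. Each of these calls, of Pax5, Pou2af1, Ikzf1 and Vpreb3, held by total count. 

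Markers of the spleen's cell types were read in the same way. Of the 10 B cell markers 4 were higher and 5 lower by TMM (28.0% and 32.6% of all genes), and 3 higher and 6 lower by total count (14.6% and 58.5%), where the lower share is near that of all genes. Of the 7 plasma cell markers 4 were higher and 0 lower by TMM, and 3 higher and 3 lower by total count, beside the same shares of all genes. Cd79a, the B cell receptor's signalling partner, had 12007 and 3916 counts (495.53 and 504.33 TPM), and Jchain, which joins secreted IgM and IgA, had 31131 and 1148. Summed over 6 erythroid markers the TPM was 18357 in replicate 1 and 29988 in replicate 2, over 6 T cell markers 513 and 87.7, and over 6 red pulp macrophage markers 892 and 779. That last sum rests on C1qa (90.10 and 569.19 TPM), and the other 5 markers, each with a lower TPM in replicate 2, summed to 802 and 210.2. Each of these markers was detected in both libraries, and the part of a changed cell mixture in the Ighv difference was not tested.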

How the data were processed

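PolyA RNA of 1 mouse spleen was quantified in 2 libraries, and each was analysed as 1 sample. Per the file headers, the deposited tables give expected counts per gene and transcript, in which the authors divided reads shared between genes, on mm10 with GENCODE M4. The deposited TPM values sum to the same total in each table. Per the file headers, lengths, effective lengths and the posterior standard deviation of a count are another measure made by the authors, in bases or counts, and a deposited percent gives each transcript's share of its gene. The aligner, the quantifier and the handling of reads across V, D and J junctions are not given in the sources used here.

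Symbols, coordinates, annotation classes and transcript sequences came from GENCODE M21 (GRCm38), which holds all 216 transcripts listed for the members, 209 at the same length. Of 185 Ighv symbols in that release, those in the tables were used. Of 69691 rows, 26345 had no Ensembl identifier and stayed out of library sizes. They held 1.09e-05% and 2.10e-04% of the counts.

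Expected counts were rounded. Scaling of library sizes used TMM (R 4.3.3, edgeR 4.0.16), with DESeq2 1.42.0 size factors and total count as alternatives. Log2 ratios of replicate 2 over 1 carry a Clopper-Pearson interval (exact, 95%) given the sum of both counts. They were called when that interval lay beyond 1.5-fold, for genes with 50 or more counts and 1 TPM or more on average. A 0 was set to 3 counts. Counting error alone enters the intervals and floors, since reads without molecular identifiers are not independent molecules, and with 1 library a side no p-value is given. The rule was tested on simulated data that held counting error only, without the other variation between libraries. Identity was taken over aligned bases of a global alignment (Biopython 1.88). The other steps used Python 3.11.15 with scipy 1.17.1, numpy 2.4.6, matplotlib 3.10.9 and pandas 2.3.3.

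Named segments are the 25 with the highest count in replicate 1, those with counts in replicate 2, the highest of each family and the detected segments nearest to and farthest from J. Others are named as chosen after their values were seen, and the silent IG_V_gene segments are named as a complete set. The members and lists were chosen with earlier results of these data known. A planned search of promoters for the octamer and of the recombination signals was not analysed here.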

Additional observations from a re-analysis of the deposited data

Results flagged for a closer look

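Signal outside the comparisons was seen in a pair of row sets of the gene tables. Rows with a numeric or spike-in identifier held 3 expected counts in technical replicate 1 and 8 in technical replicate 2. The 884 rows with an Ensembl identifier but no symbol in the annotation used held 71272 expected counts in replicate 1 and 2878 (2877.97) in replicate 2. Whether any of these rows is a heavy chain variable segment was not tested.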

How the results depend on the processing

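The lower level of the Ighv segments in technical replicate 2 kept its direction and its side of the threshold in the sum under DESeq2 size factors (-9.18), total count (-10.56) and IG_V_gene segments alone (-9.29). The count of 57 segments called lower became 55, 71, 49, 46 and 57 with DESeq2 size factors, total count, a 2-fold threshold, a 99% interval and no filter, and 35 of 35 with at least 200 counts. With at least 3 or 10 counts required, replicate 2 had 0 segments and replicate 1 had 107 and 96.

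The share of Ighv1 was 44.4% by TPM and 45.0% without the highest segment. The effective number was 57.5 over IG_V_gene segments, 59.7 without the highest segment and 42.1 by the inverse Simpson index. The share of the nearer segments was 53.8% by TPM, 53.8% without the highest segment and 63.6% with the locus divided by distance. Of 45 alternatives for the other families, 14 moved beyond the main interval. Of 120 alternatives for 30 named segments, 114 kept direction and call, 2 were weaker, 1 was stronger and 3 changed sign, the last all under total count at the floor of 3 counts: Ighv5-2 at -0.42, Ighv12-3 at -0.47 and Ighv15-2 at -0.20. Total count moves the median of all genes from -0.27 to -1.53. That shift is set by the log2 ratio of library sizes, replicate 2 over 1, which is -4.12 by TMM and -2.85 by total count. Why the scalings differ was not tested.

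The 2 Ighv counts of replicate 2 give no family, evenness or position values, and depth limits the fold that a single segment can show. No paired analysis was possible because each side of the comparison is a single library. The planned promoter and recombination signal searches were not run.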
